A study of Mus musculus with 28 samples.

Results

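Chemically induced hepatocyte libraries of neonatal fibroblast origin (MNF_ciHep) were set against libraries of chemically induced endoderm progenitor cells of the same origin (MNF_ciEPC). The 4 libraries, 2 of each, were taken by title from the deposited table of raw counts, out of 28 libraries in 9 groups. MNF_ciHep is labelled as made from ciEPCs of passage 3 to 10 that were themselves made from mouse neonatal dermal fibroblasts (MNFs). MNF_ciEPC 1 is labelled passage 2 and MNF_ciEPC 2 passage 3, and their source name reads embryonic fibroblast, in conflict with their title and cell type. All 4 come from mice that carry an Oct4-GFP transgenic allele on a CBA/CaJ X C57BL/6J background, as do the starting fibroblasts (MNF, passage 2) and primary hepatocytes of adult liver (pHep, passage 0). The libraries of embryonic fibroblast origin used here, MEF_ciHep (3), MEF_ciEPC (9 of 10, in 2 numbered series that were each summed) and MEF (3, passage 2), come from such mice crossed to 129Sv/Jae females, the MEFs from embryos of day 13.5. MEF_ciHep is labelled with ciEPC passages 3 to 10, and MEF_ciEPC spans passages 1 to 22. The same cross is given for embryonic stem cells (ESC, 2 libraries, passage 5) and for progenitors derived from them (ESC_EPC, 2 libraries, stem cell passages 10 to 15). Compounds, media and durations are not given in the sources used here. Neither is whether replicates were separate cultures, so the p-values measure only the spread between these libraries.

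Definitive endoderm is the germ layer that gives rise to liver, pancreas, gut and lung, and SOX17, FOXA2, GATA4 and GATA6 are among its best known regulators. When endoderm turns to liver, HNF4A, the FOXA factors and C/EBP factors drive the genes of secreted plasma proteins, with alpha-fetoprotein (Afp) marking the fetal stage and albumin (Alb) the fetal and adult stages. Dermal fibroblasts are mesenchymal cells that make interstitial collagens, and they carry a Hox code and the regulators TWIST1 and PRRX1 in place of an epithelial programme.

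Several properties of the libraries bear on every value below. MNF_ciHep 1 and 2 held 3102564 and 1664063 counts, and MNF_ciEPC 1 and 2 held 5931683 and 5100676. The deposited gene lengths and effective lengths implied reads or fragments of 50.53 bases in both MNF_ciHep libraries, against 74.49 and 74.50 bases in MNF_ciEPC, so this property and the groups cannot be told apart. MEF_ciEPC, at 50.53 to 50.59 bases, gives ciEPCs at the implied length of MNF_ciHep, and it is quoted beside some results below. Ddx3y, a Y-linked helicase gene, had 27.6 and 21.2 CPM in MNF_ciHep and no count in MNF_ciEPC, beside 16.6 and 32.1 CPM in MEF_ciEPC and 42.6 and 30.1 CPM in MNF. Eif2s3y, also Y-linked, had 36.3 and 51.05 CPM in MNF_ciHep and no count in MNF_ciEPC, beside 38.8 and 53.5 CPM in MEF_ciEPC. Xist, the RNA that silences 1 X chromosome in female cells, had 153 and 141 CPM in MNF_ciHep and 1962 and 2102 CPM in MNF_ciEPC, beside 1132 and 1022 CPM in MEF_ciEPC and 481 and 785 CPM in MNF. The MNF_ciHep libraries thus held RNA of Ddx3y and Eif2s3y, which both MNF_ciEPC libraries lacked. Other genes annotated to the Y chromosome did have counts in MNF_ciEPC. Over the 8 tested, the sum was 217 and 411 CPM in MNF_ciHep, 170 and 145 CPM in MNF_ciEPC and 174 and 211 CPM in MEF_ciEPC. The labels give no sex, and whether MNF_ciHep was made from the sequenced MNF_ciEPC cultures is not given in the sources used here. A difference in sex or in source between the sequenced cells cannot be told apart from the step from ciEPC to ciHep.

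A gene was called higher or lower at a Benjamini-Hochberg adjusted p under 0.05 from edgeR's quasi-likelihood test together with a difference of at least 2-fold. Of 16055 genes tested, 3247 were called higher in MNF_ciHep (20.2%) and 1770 were called lower (11%), with a median log2 fold change of 0.05 over all genes. Fold changes are MNF_ciHep over MNF_ciEPC, ± is the standard error, and CPM are counts scaled to a common library size after TMM, given for replicate 1 and then replicate 2. Where 1 group had no count, the fold is a bound against 3 counts over that group. Where it had 1 to 3 counts, the fold is the ratio of counts with its exact 95% interval, which covers counting error only. The share of genes called higher and lower was 13.2% and 8.69% without MNF_ciHep 1, 17.6% and 13.3% without MNF_ciHep 2, 15% and 9.77% without MNF_ciEPC 1, and 14.3% and 9.76% without MNF_ciEPC 2. With MEF_ciEPC in place of MNF_ciEPC it was 16.6% and 9.75%.

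The profiles of both MNF_ciHep libraries lay closer to fibroblasts and ciEPCs than to either hepatocyte group. Over the genes tested, log2 CPM of MNF_ciHep 1 correlated with the MEF libraries at a mean r of 0.853, with MNF at 0.840, with MEF_ciEPC at 0.787 and with MNF_ciEPC at 0.778. For MNF_ciHep 2 the mean r was 0.816 with MEF, 0.790 with MNF, 0.838 with MEF_ciEPC and 0.825 with MNF_ciEPC. Replicate 1 was thus nearest to fibroblasts and replicate 2 nearest to ciEPCs. With MEF_ciHep the values were 0.719 for replicate 1 and 0.762 for replicate 2, and with pHep they were 0.730 and 0.732. These are correlations across genes between pairs of libraries, and some pairs share their implied read length.

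**Figure D1:**
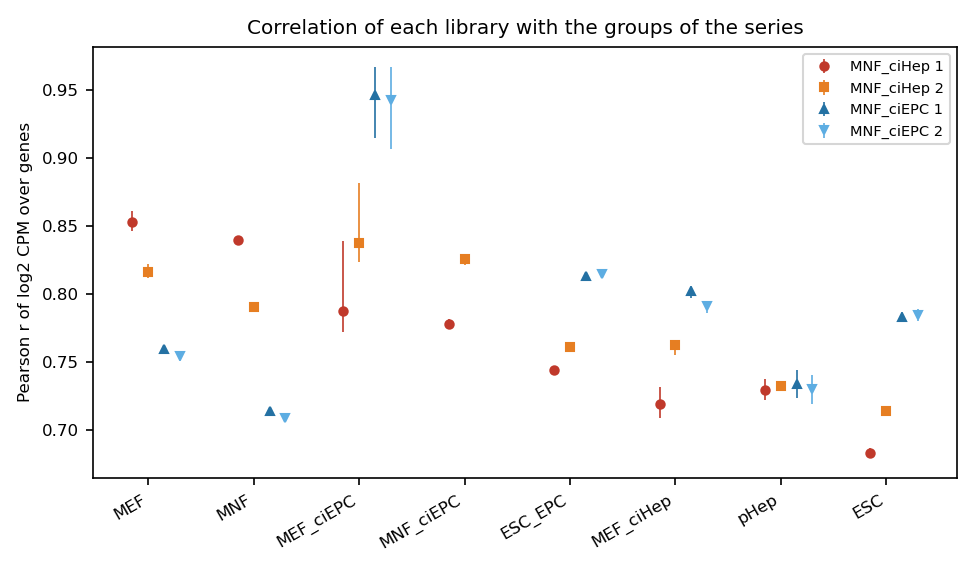
Pearson correlation of log2 CPM (prior count 2) over the genes tested between each library of the comparison (colours and symbols) and the libraries of each other group on the horizontal axis. Points are means over the libraries of the group and bars run to the lowest and highest pair. MNF_ciHep 1 reaches 0.853 with MEF and MNF_ciHep 2 reaches 0.838 with MEF_ciEPC, and both stay at 0.762 or lower with MEF_ciHep and pHep.

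The 2 MNF_ciHep libraries also differed from each other more than the MNF_ciEPC pair did. Among 6914 genes with 32 CPM or more in MNF_ciHep, 325 were at least 2-fold higher in replicate 1 and 398 at least 2-fold higher in replicate 2. Among 6444 such genes in MNF_ciEPC, 25 were at least 2-fold higher in replicate 1 and 8 in replicate 2. Of the 1175 genes called higher with 32 CPM or more in MNF_ciHep, 876 had the higher level in replicate 1. Of the 1101 genes called lower with 32 CPM or more in MNF_ciEPC, 274 did, so replicate 2 lay nearer to MNF_ciEPC in most genes of both directions.

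Liver identity was looked at first, because the label names it. Albumin, the main plasma protein of hepatocytes, was absent or nearly so, with 0 and 0.574 CPM in MNF_ciHep and no count in MNF_ciEPC, where 3 counts stand for 0.908 CPM and 1.72 CPM in MNF_ciHep 1 and 2. Other groups held it at a high level, with 1179, 1925 and 2593 CPM in MEF_ciHep and 18907 and 11609.5 CPM in pHep. Afp was called lower, with 0.908 and 6.88 CPM in MNF_ciHep and 20.4 and 15.1 CPM in MNF_ciEPC (log2 fold change -2.46 ± 0.88, adjusted p = 0.038). The groups did not overlap, but MEF_ciEPC had 2.50 and 0.823 CPM, against which the log2 fold change was 0.79 and not called, and the call was also lost without MNF_ciHep 1 and without either MNF_ciEPC library. In MEF_ciHep, Afp stood at 6667, 1522 and 6644 CPM. Cps1, which starts the urea cycle, G6pc, which releases glucose, and the cytochrome gene Cyp3a11 had no count in any of the 4 libraries, while Tat, a tyrosine breakdown enzyme, had 0 and 1.15 CPM in MNF_ciHep and no count in MNF_ciEPC. The data go against the label hepatocyte for these 2 libraries, and MNF_ciHep stands below for the label alone. In bulk RNA, fewer cells of a type and less RNA per cell cannot be told apart.

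The start regions of Alb and Afp are shown because MEF_ciHep transcribed both genes strongly and MNF_ciHep hardly at all. The sequences are RefSeq's on GRCm38.p6, from 250 bases before to 50 after the start, on the plus strand, Alb at chr5:90460620-90460919 and Afp at chr5:90490464-90490763. Capitals mark matches to the TATA-like motif TATANNA, searched on both strands. It was held by 22.9% of all 27025 promoters of the table and by 11.5% of the 11658 found for genes tested. The match begins 1 base before the annotated start of Alb and 7 bases before that of Afp. Whether these matches act in transcription was not tested.
Alb: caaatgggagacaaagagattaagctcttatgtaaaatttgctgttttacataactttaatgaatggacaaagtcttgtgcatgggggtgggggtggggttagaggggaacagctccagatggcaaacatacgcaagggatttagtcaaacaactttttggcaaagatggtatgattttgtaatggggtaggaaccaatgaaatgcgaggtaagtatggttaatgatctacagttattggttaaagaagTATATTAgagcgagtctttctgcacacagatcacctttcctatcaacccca
Afp: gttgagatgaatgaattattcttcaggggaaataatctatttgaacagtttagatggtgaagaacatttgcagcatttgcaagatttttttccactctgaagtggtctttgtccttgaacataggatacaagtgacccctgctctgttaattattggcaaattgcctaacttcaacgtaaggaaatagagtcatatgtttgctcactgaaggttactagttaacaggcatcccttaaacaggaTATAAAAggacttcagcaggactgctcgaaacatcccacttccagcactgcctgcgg

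Several transcription factors of hepatocytes fell. Hnf4a, a nuclear receptor that hepatocytes depend on, had 3.33 and 12.6 CPM in MNF_ciHep and 34.98 and 58.5 CPM in MNF_ciEPC (log2 fold change -2.73 ± 0.50, adjusted p = 0.0009). Foxa3, a forkhead factor that appears as liver forms, had 0.908 and 1.15 CPM in MNF_ciHep and 13.001 and 26.2 CPM in MNF_ciEPC (log2 fold change -4.26 ± 0.60, adjusted p = 0.000124). In both the groups did not overlap and replicate 1 was the lowest library.

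Cebpb went the other way. This C/EBP factor, which acts in many tissues and in the acute phase, had 204 and 152 CPM in MNF_ciHep and 13.2 and 13.7 CPM in MNF_ciEPC (log2 fold change 3.73 ± 0.42, adjusted p = 7.76e-06), beside 121 and 113 CPM in MNF. Cebpa, the C/EBP factor of mature hepatocytes and fat cells, had 20.3 and 15.5 CPM in MNF_ciHep and 5.11 and 10.01 CPM in MNF_ciEPC and was not called (adjusted p = 0.0773). Of 18 liver transcription factors tested, 1, Cebpb, was called higher and 5 were called lower (median log2 fold change -0.03). The lower ones numbered 2 without MNF_ciHep 1 and 3 without MNF_ciEPC 2, and the higher ones 3 against MEF_ciEPC.

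Plasma protein genes other than Alb and Afp rose in part, from almost no counts. Of 28 tested, 12 were called higher and 1, Afp, was called lower (median log2 fold change 2.91, or 2.14 with genes of an empty group at their bound). Fgb, a fibrinogen chain, had 23.9 and 59.1 CPM in MNF_ciHep and 0.464 and 0 CPM in MNF_ciEPC (146-fold higher, counting interval 49.2 to 715, adjusted p = 0.000139), while MEF_ciHep had 1545, 473 and 1166 CPM. Trf, the iron carrier transferrin, had 49.7 and 91.8 CPM in MNF_ciHep and 0.155 and 0.176 CPM in MNF_ciEPC (390.2-fold higher, counting interval 107 to 3235, adjusted p = 6.07e-05), while MEF_ciHep had 12932, 3006 and 10873 CPM. Both stood far above MNF_ciEPC and far below MEF_ciHep, and replicate 2 was the higher library in each.

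For Fetub and Apoc1, MNF_ciHep was not below MEF_ciHep. Fetub, a fetuin made by liver, had 39.4 and 67.7 CPM in MNF_ciHep and 0.31 and 0 CPM in MNF_ciEPC (299-fold higher, counting interval 81.8 to 2479.7, adjusted p = 5.32e-07), beside 25.7, 27.8 and 33.96 CPM in MEF_ciHep. Apoc1, an apolipoprotein of lipid particles, had 18.5 and 22.4 CPM in MNF_ciHep and 0.155 and 0 CPM in MNF_ciEPC (241-fold higher, counting interval 42.2 to 9607, adjusted p = 4.39e-05), beside 7.82, 3.88 and 18.02 CPM in MEF_ciHep. The MNF_ciHep libraries were above all 3 MEF_ciHep libraries for both genes, a difference that was not tested.

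Ttr and Apoa1 were far below MEF_ciHep. Ttr, the thyroxine carrier, had 9.39 and 4.01 CPM in MNF_ciHep and 0.464 and 1.76 CPM in MNF_ciEPC (log2 fold change 2.71 ± 0.83, adjusted p = 0.0198), beside 566, 369.7 and 415 CPM in MEF_ciHep, a call lost without MNF_ciHep 1 or MNF_ciEPC 1. Apoa1, the main protein of HDL, had 4.54 and 45.9 CPM in MNF_ciHep and 12.1 and 43.04 CPM in MNF_ciEPC, which overlapped and was not called (adjusted p = 0.884), beside 12759.9, 4667 and 10161 CPM in MEF_ciHep. Apoe, an apolipoprotein of liver and many other cells, had 624 and 1269.9 CPM in MNF_ciHep and 270.2 and 526 CPM in MNF_ciEPC, higher in both libraries but short of the threshold (adjusted p = 0.0544), beside 865, 292 and 684 CPM in MEF_ciHep. Over the whole list the summed level was 833 and 1858 CPM in MNF_ciHep and 436 and 670.4 CPM in MNF_ciEPC, against 39804, 14526 and 35692 CPM in MEF_ciHep. Apoe carried most of this sum in MNF_ciHep and MNF_ciEPC.

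Enzymes of drug metabolism were called higher in 10 of 21 cases and lower in 1. Cyp1b1, a cytochrome that fibroblasts make, had 61.8 and 26.96 CPM in MNF_ciHep and 3.56 and 3.16 CPM in MNF_ciEPC (log2 fold change 3.75 ± 0.48, adjusted p = 2.34e-05), beside 215 and 247 CPM in MNF, while MEF_ciHep had 0, 1.01 and 0.347 CPM. Nqo1, a quinone reductase of the NRF2 response, had 73.6 and 44.7 CPM in MNF_ciHep and 5.88 and 5.45 CPM in MNF_ciEPC (log2 fold change 3.39 ± 0.44, adjusted p = 2.63e-05). Gstm1, a glutathione transferase, had 383 and 289.7 CPM in MNF_ciHep and 35.8 and 28.99 CPM in MNF_ciEPC (log2 fold change 3.38 ± 0.45, adjusted p = 3.17e-05), and at 468, 456 and 266 CPM the MEF_ciHep libraries overlapped with it. The member that fell was Fmo1, a flavin monooxygenase, with 9.69 and 12.6 CPM in MNF_ciHep and 98.6 and 137 CPM in MNF_ciEPC (log2 fold change -3.42 ± 0.47, adjusted p = 4.4e-05).

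Among other metabolic lists of the liver, only nitrogen metabolism was above the background share of 20.2% in the higher direction. In nitrogen metabolism 5 of 16 genes were called higher and 1 lower, with 3 higher without MNF_ciHep 1 and 3 without MNF_ciEPC 1. Glutamine synthetase, Glul, was among them, with 642 and 788 CPM in MNF_ciHep and 230.2 and 232 CPM in MNF_ciEPC (log2 fold change 1.63 ± 0.26, adjusted p = 0.000147), beside 487 and 356 CPM in MEF_ciEPC, against which it was not called. Fatty acid oxidation genes were called higher in 2 and lower in 2 of 16. Without MNF_ciHep 1, 1 was higher, likewise 1 without MNF_ciEPC 1, and 0 were lower without MNF_ciEPC 2. Cholesterol synthesis genes were called higher in 1 and lower in 2 of 20 (5 lower without MNF_ciHep 1, 0 higher without MNF_ciHep 1, without MNF_ciEPC 1 or against MEF_ciEPC). Glucose output genes were called higher in 1 and lower in 1 of 11, with 0 lower without MNF_ciHep 1 or against MEF_ciEPC and 2 without MNF_ciEPC 1. Bile acid genes were called higher in 1 and lower in 1 of 9. The last 4 lists were under the background share of 20.2% in the higher direction.

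Single regulators of definitive endoderm moved in both directions. Sox17, which specifies endoderm, had 59.7 and 208 CPM in MNF_ciHep and 546 and 673 CPM in MNF_ciEPC (log2 fold change -2.21 ± 0.51, adjusted p = 0.00333). Gata4, a zinc finger factor of endoderm and heart, had 172 and 625 CPM in MNF_ciHep and 1109 and 1175 CPM in MNF_ciEPC (log2 fold change -1.53 ± 0.50, adjusted p = 0.0214), a call lost without MNF_ciHep 1 or MNF_ciEPC 2. For both genes the groups did not overlap, and replicate 2 was over 3-fold above replicate 1. Foxa2, a forkhead factor of all endoderm, had 23.6 and 114 CPM in MNF_ciHep and 106 and 125 CPM in MNF_ciEPC (adjusted p = 0.2). Gata6, the partner of Gata4, had 107 and 286 CPM in MNF_ciHep and 340.1 and 258 CPM in MNF_ciEPC (adjusted p = 0.221). Sox7, a relative of Sox17 in primitive endoderm and vessels, had 49.96 and 155 CPM in MNF_ciHep and 87.8 and 150.03 CPM in MNF_ciEPC (adjusted p = 0.711). These last 3 were not called, and MNF_ciHep 2 lay in or near the range of MNF_ciEPC for each.

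Over the list, 3 of 18 genes were called lower and 5 higher (median log2 fold change 0.03). These shares were near those of all genes tested, 11% lower and 20.2% higher with a median of 0.05. The lower ones numbered 1 without MNF_ciHep 1, 5 without MNF_ciHep 2 and 2 without MNF_ciEPC 2, with 3 higher without MNF_ciEPC 1. The rises stayed under 5 CPM except for Tdgf1, which encodes the Nodal co-receptor Cripto. Tdgf1 had 43.3 and 147 CPM in MNF_ciHep and 0.155 and 0.176 CPM in MNF_ciEPC (482-fold higher, counting interval 132 to 3991, adjusted p = 6.39e-06), with replicate 2 the higher library, and no count in MNF.

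Extraembryonic endoderm, the yolk sac lineages that share many genes with definitive endoderm, showed the split between the replicates. Lama1, a laminin chain of basement membranes, had 842 and 4174 CPM in MNF_ciHep and 5788 and 3792 CPM in MNF_ciEPC (adjusted p = 0.144). Col4a1, a basement membrane collagen, had 1691 and 6603 CPM in MNF_ciHep and 8722 and 6289 CPM in MNF_ciEPC (adjusted p = 0.144). In both, replicate 2 lay within the range of MNF_ciEPC and replicate 1 far below it. Without replicate 2 both were called lower, and against MEF_ciEPC too. The list's summed level was 10776 and 32509.9 CPM in MNF_ciHep against 43952 and 33765 CPM in MNF_ciEPC. Of 21 genes tested, 7 were called lower and 2 higher. The lower ones numbered 16 without MNF_ciHep 2 and 11 against MEF_ciEPC.

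Some members were low in both MNF_ciHep libraries. Clic6, of the chloride intracellular channel family, had 18.2 and 35.6 CPM in MNF_ciHep and 479.7 and 617 CPM in MNF_ciEPC (log2 fold change -4.40 ± 0.39, adjusted p = 2.49e-06). Lrp2, the endocytic receptor megalin, had 83.6 and 325 CPM in MNF_ciHep and 1077 and 1149.7 CPM in MNF_ciEPC (log2 fold change -2.46 ± 0.56, adjusted p = 0.00244). S100g, a calcium binding protein, had 385 and 770.3 CPM in MNF_ciHep and 2605 and 2352 CPM in MNF_ciEPC (log2 fold change -2.10 ± 0.35, adjusted p = 0.000539). In each, both MNF_ciHep libraries were below both MNF_ciEPC libraries, and replicate 1 was the lowest. Ihh, a hedgehog ligand of visceral endoderm, had 14.8 and 59.1 CPM in MNF_ciHep and 302 and 266 CPM in MNF_ciEPC (log2 fold change -3.02 ± 0.65, adjusted p = 0.00223). Nid1, which links laminin and collagen in basement membranes, went the other way, with 566 and 1068 CPM in MNF_ciHep and 69.7 and 18.1 CPM in MNF_ciEPC (log2 fold change 4.21 ± 0.51, adjusted p = 1.37e-05), beside 1749 and 1799 CPM in MNF.

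Epithelial genes fell in part. Of 28 epithelial junction genes tested, 13 were called lower and 0 higher (median log2 fold change -1.11), and 20 were lower without MNF_ciHep 2. St14, the membrane protease matriptase, had 18.8 and 52.8 CPM in MNF_ciHep and 404 and 436 CPM in MNF_ciEPC (log2 fold change -3.61 ± 0.35, adjusted p = 2.14e-06). Ocln, occludin of tight junctions, had 6.36 and 9.18 CPM in MNF_ciHep and 57.7 and 57.8 CPM in MNF_ciEPC (log2 fold change -2.94 ± 0.29, adjusted p = 2.78e-06). Cldn6, a claudin of early epithelia, had 19.1 and 54.5 CPM in MNF_ciHep and 316 and 355 CPM in MNF_ciEPC (log2 fold change -3.25 ± 0.77, adjusted p = 0.0035). No MNF_ciHep library reached the range of MNF_ciEPC for these 3 genes, although against MEF_ciEPC, at 197 and 66.98 CPM, Cldn6 was not called.

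Trafficking and regulatory genes of epithelia did the same. Ap1m2, a subunit of an epithelial sorting adaptor, had 3.33 and 8.03 CPM in MNF_ciHep and 50.5 and 50.1 CPM in MNF_ciEPC (log2 fold change -3.27 ± 0.36, adjusted p = 1.36e-05). Spint1, an inhibitor of matriptase, had 49.7 and 53.3 CPM in MNF_ciHep and 225 and 248 CPM in MNF_ciEPC (log2 fold change -2.20 ± 0.27, adjusted p = 1.54e-05). Grhl2, a regulator of junction genes, had 2.12 and 4.59 CPM in MNF_ciHep and 23.1 and 16.9 CPM in MNF_ciEPC (log2 fold change -2.69 ± 0.41, adjusted p = 0.00021). The groups did not overlap for any of these. Cdh1, E-cadherin, had 36.03 and 149 CPM in MNF_ciHep and 231 and 202 CPM in MNF_ciEPC, lower in both libraries but short of the threshold (log2 fold change -1.25 ± 0.51, adjusted p = 0.0595). Epcam, a surface marker of epithelia, had 87.5 and 226 CPM in MNF_ciHep and 216 and 202 CPM in MNF_ciEPC (adjusted p = 0.413). Krt18, a keratin of simple epithelia, had 209 and 636 CPM in MNF_ciHep and 356 and 326 CPM in MNF_ciEPC (adjusted p = 0.644). Krt19, a keratin of ducts and progenitors, had 174 and 144 CPM in MNF_ciHep and 171 and 178 CPM in MNF_ciEPC (adjusted p = 0.823). Epcam, Krt18 and Krt19 overlapped between the groups.

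Fibroblast genes rose widely. Of 30 interstitial matrix genes tested, 26 were called higher and 0 lower, with a median log2 fold change of 8.56 (7.24 with genes of an empty group at their bound). Against MEF_ciEPC 23 were higher and 1 lower, with a median of 4.93. Col1a1, a chain of type I collagen, had 1248 and 615 CPM in MNF_ciHep and 0.929 and 0.878 CPM in MNF_ciEPC (log2 fold change 9.97 ± 1.56, adjusted p = 0.00013), beside 26428 and 28566 CPM in MNF. Col3a1, type III collagen, had 2359 and 523 CPM in MNF_ciHep and 0.464 and 1.05 CPM in MNF_ciEPC (log2 fold change 10.87 ± 2.05, adjusted p = 0.000602), beside 11450.000 and 14745 CPM in MNF. Replicate 1 was the higher MNF_ciHep library for both, and MNF exceeded it many-fold. Fn1, fibronectin, had 4127 and 6926 CPM in MNF_ciHep and 156 and 139 CPM in MNF_ciEPC (log2 fold change 5.23 ± 0.38, adjusted p = 2.21e-07), with 9833 and 11466 CPM in MNF, while MEF_ciHep had 2178, 1355 and 1999.9 CPM. Here replicate 2 was the higher library, and both were above every MEF_ciHep library.

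All 3 main chains of type VI collagen, a microfibrillar collagen of connective tissue, were called higher. Col6a1 had 1162 and 467 CPM in MNF_ciHep and 36.5 and 15.99 CPM in MNF_ciEPC (log2 fold change 4.95 ± 0.51, adjusted p = 3.35e-06). Col6a2 had 1049 and 282 CPM in MNF_ciHep and 19.8 and 14.4 CPM in MNF_ciEPC (log2 fold change 5.28 ± 0.60, adjusted p = 1.15e-05). Col6a3 had 94.5 and 28.7 CPM in MNF_ciHep and no count in MNF_ciEPC (at least 291-fold higher, adjusted p = 0.00247), and against MEF_ciEPC, at 61.1 and 0 CPM, it was not called. Replicate 1 was at least 2-fold above replicate 2 in each. Postn, periostin of dermal matrix, had 1175 and 719.8 CPM in MNF_ciHep and 0.155 and 0.351 CPM in MNF_ciEPC (4123-fold higher, counting interval 1410.1 to 20000.3, adjusted p = 2.36e-05). Dcn, the small proteoglycan decorin, had 724 and 230.001 CPM in MNF_ciHep and 0.155 and 0.176 CPM in MNF_ciEPC (3363-fold higher, counting interval 930.2 to 27786, adjusted p = 0.00017). Loxl1, which crosslinks elastic fibres, had 57.5 and 54.5 CPM in MNF_ciHep and 0.155 and 0 CPM in MNF_ciEPC (686-fold higher, counting interval 122 to 27205, adjusted p = 2.22e-06). These 3 were present in both MNF_ciHep libraries and had at most 3 counts in MNF_ciEPC. Sparc, a matrix glycoprotein that parietal endoderm also makes, carried most of the list in MNF_ciEPC, with 2268 and 4250.1 CPM in MNF_ciHep and 5842 and 4885 CPM in MNF_ciEPC, and was not called (adjusted p = 0.289). The whole list summed to 20108 and 18611 CPM in MNF_ciHep, 7060.1 and 5947 CPM in MNF_ciEPC and 149455 and 161243 CPM in MNF.

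Surface markers and regulators of fibroblasts were called higher in 19 of 21 cases and lower in 0 (16 higher and 0 lower against MEF_ciEPC). Twist1, a mesenchymal transcription factor, had 233 and 156 CPM in MNF_ciHep and 1.39 and 1.23 CPM in MNF_ciEPC (log2 fold change 7.19 ± 0.34, adjusted p = 7.37e-09), beside 243 and 195 CPM in MNF. Prrx1, a homeobox regulator of limb and skin mesenchyme, had 251 and 119 CPM in MNF_ciHep and 0.155 and 0 CPM in MNF_ciEPC (2493-fold higher, counting interval 446 to 98550.2, adjusted p = 7.38e-06), beside 477 and 504 CPM in MNF. Twist1 in MNF_ciHep 1 thus lay in the range of MNF, and Prrx1 stayed under it. Snai2, a repressor of epithelial genes, had 76.9 and 27.5 CPM in MNF_ciHep and 0.619 and 0.703 CPM in MNF_ciEPC (log2 fold change 6.28 ± 0.56, adjusted p = 1.13e-06). Zeb2, a repressor of E-cadherin, had 100.2 and 59.1 CPM in MNF_ciHep and 1.24 and 0.703 CPM in MNF_ciEPC (log2 fold change 6.32 ± 0.66, adjusted p = 4.19e-06). Pdgfrb, a growth factor receptor of fibroblasts and mural cells, had 95.4 and 65.96 CPM in MNF_ciHep and 1.70 and 1.05 CPM in MNF_ciEPC (log2 fold change 5.84 ± 0.59, adjusted p = 3.19e-06). In all 5 genes MNF_ciEPC was under 2 CPM and replicate 1 was the higher MNF_ciHep library. Thy1, a surface marker of dermal fibroblasts, had 375 and 97.5 CPM in MNF_ciHep and 26.6 and 8.26 CPM in MNF_ciEPC (log2 fold change 3.76 ± 0.58, adjusted p = 0.000124). Vim, vimentin of mesenchymal filaments, had 1082 and 595 CPM in MNF_ciHep and 201 and 151 CPM in MNF_ciEPC (log2 fold change 2.25 ± 0.47, adjusted p = 0.00121), but against 491 and 506 CPM in MEF_ciEPC it was not called. The fibroblast lists moved together with the groups described next, and the part of fibroblasts in those groups was not tested.

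**Figure D2:**
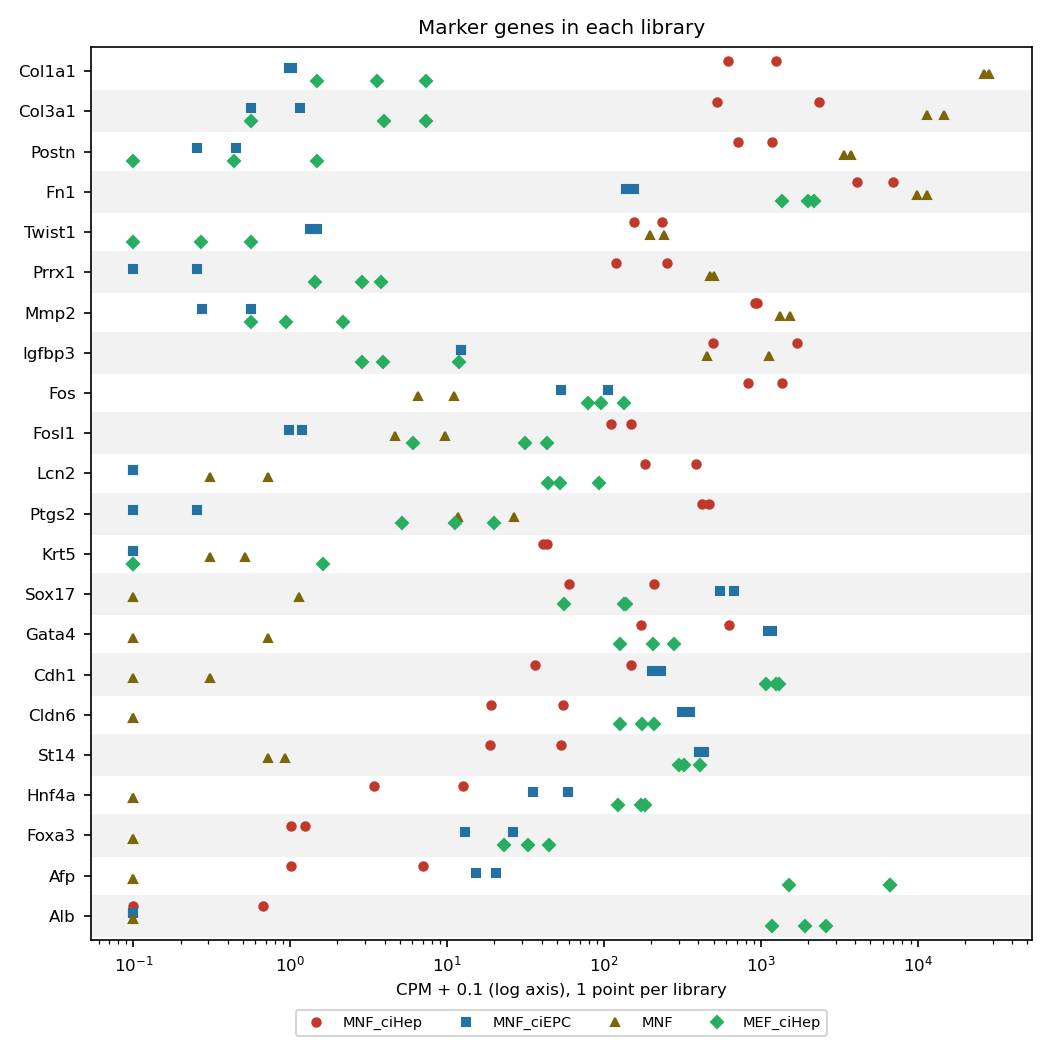
CPM plus 0.1 on a log axis for 22 genes (rows), with 1 point per library in MNF_ciHep (red circles), MNF_ciEPC (blue squares), MNF (brown triangles) and MEF_ciHep (green diamonds). Col1a1 lies far right of MNF_ciEPC, at 1248 and 615 CPM in MNF_ciHep against 0.929 and 0.878 CPM in MNF_ciEPC. Hnf4a lies left of it, at 3.33 and 12.6 CPM in MNF_ciHep against 34.98 and 58.5 CPM in MNF_ciEPC.

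Proteases that cut matrix and their inhibitors were called higher in 13 of 15 cases and lower in 0. Their median log2 fold change was 6.34 (5.53 with genes of an empty group at their bound). Against MEF_ciEPC 14 were higher and 0 lower, with a median of 3.39. Mmp2, a gelatinase, had 924 and 952 CPM in MNF_ciHep and 0.464 and 0.176 CPM in MNF_ciEPC (log2 fold change 11.37 ± 1.28, adjusted p = 7.74e-06), beside 1536 and 1316 CPM in MNF. Mmp14, which activates it at the cell surface, had 280.4 and 146 CPM in MNF_ciHep and 4.33 and 4.92 CPM in MNF_ciEPC (log2 fold change 5.53 ± 0.57, adjusted p = 3.34e-06), beside 1322 and 1262 CPM in MNF. Timp2, an inhibitor that binds both, had 863 and 490.4 CPM in MNF_ciHep and 11.1 and 5.45 CPM in MNF_ciEPC (log2 fold change 6.34 ± 0.61, adjusted p = 2.1e-06), beside 1783 and 1595 CPM in MNF. These 3 were below MNF in both MNF_ciHep libraries. Timp1, the inducible inhibitor, had 128 and 106 CPM in MNF_ciHep and 17.5 and 9.49 CPM in MNF_ciEPC (log2 fold change 3.11 ± 0.35, adjusted p = 6.57e-06), beside 100 and 149 CPM in MNF. Another set was nearly empty in MNF. Mmp3, a stromelysin, had 46.6 and 50.5 CPM in MNF_ciHep and no count in MNF_ciEPC (at least 194-fold higher, adjusted p = 0.00141), beside 1.86 and 1.66 CPM in MNF. Mmp10, its close relative, had 13.02 and 13.2 CPM in MNF_ciHep and no count in MNF_ciEPC (at least 52.98-fold higher, adjusted p = 0.0045), beside 0.207 and 0 CPM in MNF. Mmp13, a collagenase, had 12.1 and 9.18 CPM in MNF_ciHep and no count in MNF_ciEPC (at least 44.96-fold higher, adjusted p = 0.000819), beside 0.826 and 2.49 CPM in MNF. Both MNF_ciHep libraries were above MNF for these 3 genes, a difference that was not tested.

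Mmp3, Mmp10 and Mmp13 lie near each other on chromosome 9, and their start regions are shown because the genes moved together and each region holds an AP-1 motif, which dimers of FOS and JUN proteins bind. The RefSeq sequences on GRCm38.p6 are from the plus strand, Mmp3 at chr9:7445572-7445871, Mmp10 at chr9:7502092-7502391 and Mmp13 at chr9:7272264-7272563. Capitals mark the motif TGANTCA, which reads the same on both strands. It begins 46 bases before the start of Mmp3, 63 before that of Mmp10 and 35 before that of Mmp13.
Mmp3: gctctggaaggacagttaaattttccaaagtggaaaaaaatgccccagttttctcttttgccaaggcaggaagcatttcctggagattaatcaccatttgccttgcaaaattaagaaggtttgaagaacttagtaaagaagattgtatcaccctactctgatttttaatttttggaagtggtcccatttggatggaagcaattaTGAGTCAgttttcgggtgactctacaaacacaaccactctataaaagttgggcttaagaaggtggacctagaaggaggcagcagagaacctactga
Mmp10: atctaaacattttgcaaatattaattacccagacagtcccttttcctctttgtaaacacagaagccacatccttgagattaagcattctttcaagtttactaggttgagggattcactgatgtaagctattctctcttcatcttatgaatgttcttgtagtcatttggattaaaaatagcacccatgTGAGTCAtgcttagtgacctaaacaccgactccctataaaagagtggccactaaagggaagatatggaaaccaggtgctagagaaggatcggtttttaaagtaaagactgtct
Mmp13: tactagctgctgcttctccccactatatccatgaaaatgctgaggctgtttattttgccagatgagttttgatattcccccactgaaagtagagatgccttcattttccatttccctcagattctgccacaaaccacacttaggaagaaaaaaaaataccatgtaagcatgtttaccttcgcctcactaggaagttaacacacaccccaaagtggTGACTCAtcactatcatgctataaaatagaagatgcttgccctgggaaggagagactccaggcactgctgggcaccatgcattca
Of all 27025 promoters of the table, 7.93% held this motif, and of the 11658 found for genes tested 5.56% did. Among promoters found for genes called higher with 32 CPM or more in MNF_ciHep, 6.68% held it. Among those found for genes called lower with 32 CPM or more in MNF_ciEPC, 5.27% did. The table held a promoter for only 838 of the 1175 higher genes (71.3%), for 77.6% of the lower genes and for 72.6% of those tested. All of these shares are thus incomplete, and their difference was not tested. The part of AP-1 in the rise of the Mmp genes was not tested either.

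Genes of AP-1 belong to the immediate early genes, which cells switch on within minutes of a stimulus or of handling. Of 18 tested, 17 were called higher and 0 lower (median log2 fold change 3.37). Against MEF_ciEPC 13 were higher and 0 lower, with a median of 2.42. Fos had 1374 and 831 CPM in MNF_ciHep and 106 and 53.2 CPM in MNF_ciEPC (log2 fold change 3.79 ± 1.22, adjusted p = 0.0201), beside 10.95 and 6.44 CPM in MNF, but its call was lost without MNF_ciHep 1, without either MNF_ciEPC library and against MEF_ciEPC. Jun, the usual partner of FOS, had 1035 and 1048 CPM in MNF_ciHep and 154 and 153 CPM in MNF_ciEPC (log2 fold change 2.76 ± 0.47, adjusted p = 0.000279). Fosl1, a FOS family member of slower kinetics, had 111 and 149 CPM in MNF_ciHep and 1.08 and 0.878 CPM in MNF_ciEPC (log2 fold change 7.0 ± 0.99, adjusted p = 5.35e-05). All 3 were far above MNF_ciEPC in both MNF_ciHep libraries.

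Early genes outside AP-1 moved likewise. Egr1, a zinc finger factor, had 1875 and 1791 CPM in MNF_ciHep and 69.96 and 34.6 CPM in MNF_ciEPC (log2 fold change 5.13 ± 0.81, adjusted p = 0.000146). Nr4a1, an orphan nuclear receptor, had 486 and 372 CPM in MNF_ciHep and 14.5 and 11.8 CPM in MNF_ciEPC (log2 fold change 5.02 ± 0.62, adjusted p = 1.67e-05). Ier3, a regulator of survival signals, had 351 and 326 CPM in MNF_ciHep and 3.25 and 2.81 CPM in MNF_ciEPC (log2 fold change 6.79 ± 0.50, adjusted p = 2.22e-07). The exception was Klf4, with 367 and 732 CPM in MNF_ciHep and 1046 and 882 CPM in MNF_ciEPC, which was not called (adjusted p = 0.129). The summed list was 11357 and 10421 CPM in MNF_ciHep and 2255 and 1904 CPM in MNF_ciEPC, against 1998, 1984 and 2380.1 CPM in MEF_ciHep and 1196 and 1289 CPM in MNF. Both MNF_ciHep libraries were above every library of those 3 groups. The handling of cells before lysis is not given in the sources used here, and its part in these values was not tested.

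Inflammatory genes were nearly silent in MNF_ciEPC and present in both MNF_ciHep libraries. Of 21 tested, 14 were called higher and 0 lower (12 higher and 0 lower against MEF_ciEPC). Their summed level was 1402 and 1244 CPM in MNF_ciHep, 12.2 and 10.4 CPM in MNF_ciEPC and 194 and 187 CPM in MNF. MEF_ciHep overlapped with MNF_ciHep, at 1713, 1191 and 1166 CPM. From MEF_ciEPC to MEF_ciHep, 12 of these 21 genes were called higher, beside 18.7% of all genes tested. Lcn2, a lipocalin that binds bacterial iron carriers, had 384 and 184 CPM in MNF_ciHep and no count in MNF_ciEPC (at least 1276-fold higher, adjusted p = 9.02e-06). Ptgs2, the inducible cyclooxygenase, had 424 and 466 CPM in MNF_ciHep and 0.155 and 0 CPM in MNF_ciEPC (5329.8-fold higher, counting interval 956 to 210610.000, adjusted p = 4.11e-05). Cxcl1, a chemokine that attracts neutrophils, had 164 and 198 CPM in MNF_ciHep and 0.31 and 0 CPM in MNF_ciEPC (1068-fold higher, counting interval 295 to 8834, adjusted p = 1.93e-05). The replicates were close for Ptgs2 and Cxcl1, and replicate 1 was about 2-fold above replicate 2 for Lcn2. Cxcl5, another neutrophil chemokine, had 115 and 90.6 CPM in MNF_ciHep and no count in MNF_ciEPC (at least 433-fold higher, adjusted p = 3.14e-06). Complement component C3 had 81.8 and 67.7 CPM in MNF_ciHep and 0.774 and 0.351 CPM in MNF_ciEPC (log2 fold change 6.97 ± 0.85, adjusted p = 1.49e-05), beside 523, 308 and 357 CPM in MEF_ciHep.

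Interferon response genes were called higher in 12 of 16 cases and lower in 0. Isg15, a ubiquitin-like protein, had 59.3 and 26.4 CPM in MNF_ciHep and 0.31 and 0.176 CPM in MNF_ciEPC (194-fold higher, counting interval 65.7 to 949, adjusted p = 7.74e-06). Irf7, a regulator of interferon genes, had 35.7 and 28.7 CPM in MNF_ciHep and 4.18 and 1.58 CPM in MNF_ciEPC (log2 fold change 3.46 ± 0.41, adjusted p = 1.19e-05). Ifitm3, which hinders virus entry, had 261 and 117 CPM in MNF_ciHep and 3.71 and 2.81 CPM in MNF_ciEPC (log2 fold change 5.85 ± 0.88, adjusted p = 9.37e-05). Replicate 1 was the higher library in all 3. The list summed to 1168 and 633 CPM in MNF_ciHep and 260.3 and 191 CPM in MNF_ciEPC, beside 1151 and 1205 CPM in MNF. MNF_ciHep 1 thus stood at the MNF level, but MEF_ciHep was higher than both, at 1955, 2838 and 1832 CPM. From MEF_ciEPC to MEF_ciHep, 15 of these 16 genes were called higher, beside 18.7% of all genes tested. In antigen presentation 7 of 11 genes were called higher, but 1 without MNF_ciHep 1, 4 without MNF_ciEPC 1 and 3 without MNF_ciEPC 2. Of 19 stress genes, 8 were called higher and 1 lower. Their leading gene was Slc7a11, the cystine transporter, with 94.5 and 102 CPM in MNF_ciHep and 0.774 and 1.23 CPM in MNF_ciEPC (log2 fold change 6.59 ± 0.73, adjusted p = 6.51e-06).

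**Figure D3:**
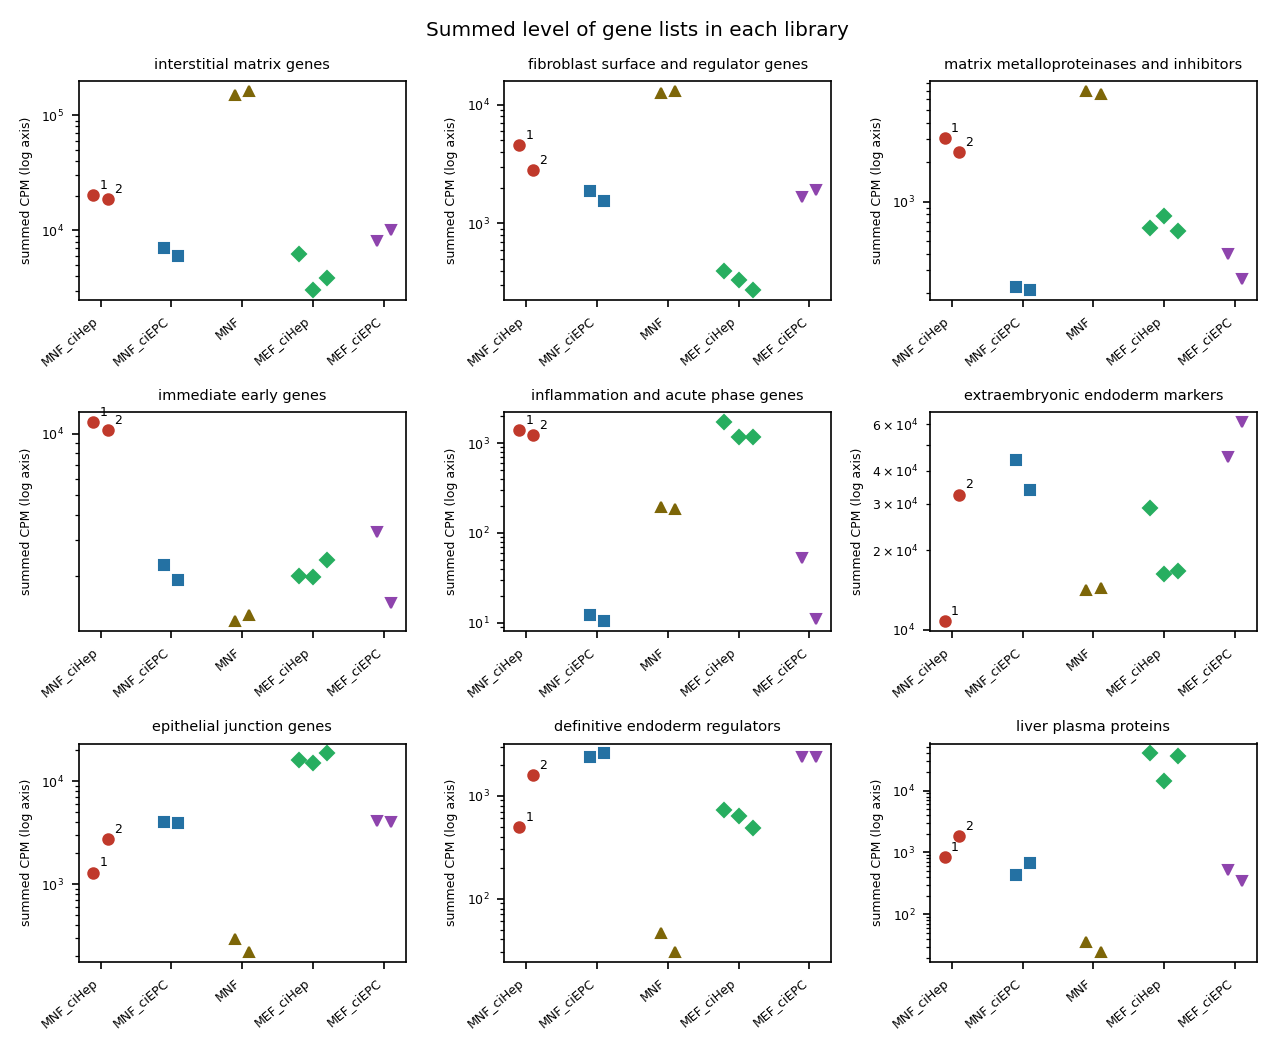
Summed CPM (log axes) of 9 gene lists, 1 point per sample, in MNF_ciHep, MNF_ciEPC, MNF, MEF_ciHep and MEF_ciEPC (here 2 numbered series, each the sum of its passages). Numbers beside the red points are the MNF_ciHep replicates. For the extraembryonic endoderm list replicate 1 lies far under replicate 2, at 10776 and 32509.9 CPM. For fibroblast surface and regulator genes replicate 1 lies above, at 4573 and 2792 CPM.

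Most Hox genes, which record position along the body, were higher. Of 36 Hox genes tested, 24 were called higher and 0 lower (median log2 fold change 3.39), and 14 were higher without MNF_ciHep 1. Hoxa5 had 54.5 and 10.3 CPM in MNF_ciHep and 0 and 0.176 CPM in MNF_ciEPC (477-fold higher, counting interval 84.6 to 18929, adjusted p = 1.47e-05), beside 9.92 and 11.01 CPM in MNF. Hoxc6 had 40.9 and 18.9 CPM in MNF_ciHep and 2.79 and 2.46 CPM in MNF_ciEPC (log2 fold change 3.52 ± 0.43, adjusted p = 2.24e-05). Hoxb9 had 88.7 and 33.8 CPM in MNF_ciHep and 9.44 and 7.38 CPM in MNF_ciEPC (log2 fold change 2.88 ± 0.48, adjusted p = 0.000255), beside 25.4 and 28.04 CPM in MNF. In each of these, replicate 1 was at least 2-fold above replicate 2. The summed list was 528 and 212 CPM in MNF_ciHep, 43.3 and 43.6 CPM in MNF_ciEPC and 542 and 453 CPM in MNF. Neighbouring Hox genes overlap in their transcripts and the use of strand in the counting is not given in the sources used here, so single members are uncertain.

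Of 20 limb and skin positional factors tested, 12 were called higher (7 without MNF_ciHep 1) and 2 lower. Their summed level was nonetheless lower, at 335 and 444 CPM in MNF_ciHep and 1291 and 1565 CPM in MNF_ciEPC, most of it in MNF_ciEPC from Pitx1. Hand2, a regulator of limb and heart fields, had 47.8 and 20.6 CPM in MNF_ciHep and no count in MNF_ciEPC (at least 156-fold higher, adjusted p = 2.81e-05). Tbx15, a factor of dorsal dermis, had 25.4 and 13.2 CPM in MNF_ciHep and 4.33 and 5.45 CPM in MNF_ciEPC (log2 fold change 2.03 ± 0.29, adjusted p = 6.04e-05), but against 11.6 and 12.9 CPM in MEF_ciEPC it was not called. Pitx1, a homeobox factor of the hindlimb, was among those that fell. It had 101 and 257 CPM in MNF_ciHep and 1172 and 1388 CPM in MNF_ciEPC (log2 fold change -2.85 ± 0.43, adjusted p = 0.000104), and MNF, at 0.826 and 0.415 CPM, hardly held it.

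Among TGF-beta genes, 9 of 14 tested were called higher and 0 lower, all 3 ligands among the first. Tgfb1 had 99.3 and 64.2 CPM in MNF_ciHep and 2.32 and 4.57 CPM in MNF_ciEPC (log2 fold change 4.59 ± 0.33, adjusted p = 2.21e-07). Tgfb2 had 288 and 76.3 CPM in MNF_ciHep and 0.774 and 0.176 CPM in MNF_ciEPC (log2 fold change 8.47 ± 0.98, adjusted p = 9.07e-06). Tgfb3 had 66.9 and 13.2 CPM in MNF_ciHep and no count in MNF_ciEPC (at least 196-fold higher, adjusted p = 8.86e-06). Each ligand was higher in replicate 1 than in replicate 2, most so for Tgfb3. Tgfbi, a secreted target of the pathway, had 322 and 81.4 CPM in MNF_ciHep and 0 and 0.176 CPM in MNF_ciEPC (2907-fold higher, counting interval 521 to 114912, adjusted p = 6.39e-06). Id1, a target of the related BMP signals, had 554 and 319 CPM in MNF_ciHep and 106 and 140.4 CPM in MNF_ciEPC (log2 fold change 1.83 ± 0.45, adjusted p = 0.00386), a call lost without MNF_ciHep 1 or MNF_ciEPC 1.

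Of 12 YAP targets, 6 were called higher and 2 lower. Cyr61, a matricellular protein and classic target, had 857 and 1216 CPM in MNF_ciHep and 40.2 and 40.4 CPM in MNF_ciEPC (log2 fold change 4.68 ± 0.72, adjusted p = 0.000114), beside 261 and 290.1 CPM in MNF. Contractile genes were called higher in 8 of 15 cases, in 3 without MNF_ciHep 1, in 5 without MNF_ciEPC 1 and in 5 without MNF_ciEPC 2. Acta2, smooth muscle actin of activated fibroblasts, had 23.9 and 6.31 CPM in MNF_ciHep and 0.155 and 0 CPM in MNF_ciEPC (217-fold higher, counting interval 37.9 to 8655, adjusted p = 0.00241), a call lost without MNF_ciHep 1. MNF had 1717 and 2406 CPM, so this gene stayed far under the fibroblast level.

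In the insulin-like growth factor axis 7 of 15 genes were called higher and 1 lower (3 lower without MNF_ciHep 2). The ligand Igf2 had 3063 and 2036 CPM in MNF_ciHep and 1881 and 1952 CPM in MNF_ciEPC and was not called (adjusted p = 0.564), although it was higher against 1090.2 and 491 CPM in MEF_ciEPC. Its receptor Igf1r had 118 and 145 CPM in MNF_ciHep and 14.7 and 14.4 CPM in MNF_ciEPC (log2 fold change 3.17 ± 0.19, adjusted p = 8.22e-08). Igfbp5, a binding protein found in matrix, had 6577 and 4603 CPM in MNF_ciHep and 278 and 316 CPM in MNF_ciEPC (log2 fold change 4.24 ± 0.56, adjusted p = 3.23e-05), beside 203 and 335 CPM in MNF. Both MNF_ciHep libraries were above MNF for Igfbp5. Igfbp3, the main IGF carrier of serum, had 1698 and 496 CPM in MNF_ciHep and 12.2 and 12.1 CPM in MNF_ciEPC (log2 fold change 6.49 ± 0.93, adjusted p = 6.01e-05). Igfbp4 had 625 and 594 CPM in MNF_ciHep and 4.02 and 2.46 CPM in MNF_ciEPC (log2 fold change 7.53 ± 0.64, adjusted p = 8.13e-07). Igfbp2, a binding protein of fetal liver, was the one that fell, with 99.6 and 185 CPM in MNF_ciHep and 450.1 and 605 CPM in MNF_ciEPC (log2 fold change -1.90 ± 0.60, adjusted p = 0.019), a call lost without MNF_ciHep 1 or MNF_ciEPC 2. Among imprinted growth genes 6 were called higher and 3 lower of 20, but 10 higher and 0 lower against MEF_ciEPC. H19, an imprinted RNA beside Igf2, had 7080.2 and 7521 CPM in MNF_ciHep and 5795 and 6351 CPM in MNF_ciEPC and was not called (adjusted p = 0.81), although it was higher against 1326 and 97.03 CPM in MEF_ciEPC.

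Squamous epidermal genes appeared at a low level. Of 22 tested, 16 were called higher and 0 lower (median log2 fold change 6.65, or 4.41 with genes of an empty group at their bound). Against MEF_ciEPC 13 were higher and 0 lower. Krt5, a keratin of basal keratinocytes, had 43.3 and 40.7 CPM in MNF_ciHep and no count in MNF_ciEPC (at least 172-fold higher, adjusted p = 0.00035). Trp63, the p63 factor of stratified epithelia, had 6.06 and 8.60 CPM in MNF_ciHep and 0 and 0.176 CPM in MNF_ciEPC (84.3-fold higher, counting interval 14.2 to 3423, adjusted p = 0.00108). Ly6d, a surface protein of keratinocytes and lymphocytes, had 152 and 91.2 CPM in MNF_ciHep and 0.31 and 0 CPM in MNF_ciEPC (796-fold higher, counting interval 219 to 6586, adjusted p = 1.72e-05). The replicates were within 2-fold of each other for all 3. Ivl, involucrin of the cornified envelope, had 31.5 and 49.9 CPM in MNF_ciHep and 0.155 and 0 CPM in MNF_ciEPC (460.005-fold higher, counting interval 81.6 to 18263, adjusted p = 5.37e-06), beside 34.5, 57.8 and 29.5 CPM in MEF_ciHep. Sprr1a, another envelope protein, had 56.3 and 80.3 CPM in MNF_ciHep and no count in MNF_ciEPC (at least 262-fold higher, adjusted p = 1.79e-05), beside 88.3, 123 and 97.7 CPM in MEF_ciHep. The summed list was 523 and 547 CPM in MNF_ciHep and 60.5 and 42.9 CPM in MNF_ciEPC, and at 20.5 and 18.9 CPM MNF held little of it.

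Markers of hepatoblasts and bile ducts were called higher in 5 and lower in 3 of 17 (1 lower without MNF_ciHep 1 and 5 without MNF_ciHep 2). Spp1, osteopontin of bile ducts and many mesenchymal cells, had 1158 and 1549 CPM in MNF_ciHep and 2.01 and 0.703 CPM in MNF_ciEPC (log2 fold change 9.90 ± 1.34, adjusted p = 3.9e-05), beside 59.8, 391 and 273 CPM in MEF_ciHep and 38.2 and 74.1 CPM in MNF. Sox4, a factor of bile duct formation and of many progenitors, had 296 and 221 CPM in MNF_ciHep and 8.36 and 8.08 CPM in MNF_ciEPC (log2 fold change 4.97 ± 0.48, adjusted p = 2.25e-06), beside 285 and 234 CPM in MNF. Spp1 was above both of those groups, and Sox4 was close to MNF. Of 17 gastric and intestinal genes 3 were called higher and 3 lower. The higher ones numbered 0 without MNF_ciHep 1, 1 without MNF_ciEPC 1, 1 without MNF_ciEPC 2 and 1 against MEF_ciEPC. Those that fell were secreted proteins of the stomach, Gkn1, Gkn2 and Tff1. Gkn1, a gastrokine, had 2.12 and 8.03 CPM in MNF_ciHep and 230.002 and 92.2 CPM in MNF_ciEPC (log2 fold change -5.17 ± 0.90, adjusted p = 0.000974). Tff1, a trefoil peptide of mucus, had 2.12 and 1.72 CPM in MNF_ciHep and 58.2 and 19.5 CPM in MNF_ciEPC (log2 fold change -4.29 ± 1.55, adjusted p = 0.0448), a call lost without MNF_ciHep 1, without MNF_ciHep 2 or without MNF_ciEPC 1. Gkn2, another gastrokine, had 1.51 and 10.9 CPM in MNF_ciHep and 289 and 90.3 CPM in MNF_ciEPC (log2 fold change -5.16 ± 0.87, adjusted p = 0.000606), beside 12250.5, 3905 and 4810.1 CPM in MEF_ciHep.

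Genes of trophoblast and placenta were called higher in 7 and lower in 1 of 16. The higher ones numbered 3 without MNF_ciHep 1, 3 without MNF_ciEPC 1, 3 without MNF_ciEPC 2 and 1 against MEF_ciEPC. The leading members were the prolactin family genes Prl2c3, with 134 and 215 CPM in MNF_ciHep and 0.774 and 0 CPM in MNF_ciEPC, and Prl2c2, with 77.8 and 82.6 CPM in MNF_ciHep and no count in MNF_ciEPC. They are near-identical copies whose reads the counting could have split, and neither was called against MEF_ciEPC. Peg10, an imprinted placental gene, fell, with 815 and 1913 CPM in MNF_ciHep and 5228 and 6292 CPM in MNF_ciEPC (log2 fold change -2.08 ± 0.48, adjusted p = 0.00262), and was not called against 3805 and 1798 CPM in MEF_ciEPC.

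Pluripotency factors were called higher in 7 of 22 cases and lower in 1. The higher ones numbered 2 without MNF_ciHep 2, 4 without MNF_ciEPC 1 and 2 without MNF_ciEPC 2, and the lower ones 5 without MNF_ciHep 2. Pou5f1, the Oct4 gene that is also the source of the transgene's name, had 2.73 and 27.5 CPM in MNF_ciHep and 0.929 and 0.527 CPM in MNF_ciEPC (log2 fold change 4.11 ± 0.98, adjusted p = 0.0034), beside 998 and 1018 CPM in ESC. Dppa5a, a gene of early embryonic cells, had 2.12 and 61.4 CPM in MNF_ciHep and 0.774 and 0.176 CPM in MNF_ciEPC (log2 fold change 5.81 ± 1.48, adjusted p = 0.00624). In both, replicate 2 held nearly all of the signal, and the call was lost without it.

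Lists of blood, vessel, fat, stellate, neural and muscle cells were short, and each held a larger share of higher genes than the background of 20.2%. Macrophage and blood genes were called higher in 4 of 9 cases, 2 without MNF_ciHep 1. Their summed level was 113 and 174 CPM in MNF_ciHep, 18.7 and 13.7 CPM in MNF_ciEPC and 46.7 and 68.3 CPM in MNF. Cd14, a co-receptor for bacterial lipid, had 69.9 and 80.9 CPM in MNF_ciHep and 0.929 and 1.58 CPM in MNF_ciEPC (log2 fold change 5.89 ± 0.74, adjusted p = 2.07e-05). The macrophage marker Adgre1 had no count in any of the 4 libraries. Whether macrophages were present was not tested. Endothelial genes were called higher in 5 of 12, 3 without MNF_ciHep 2 and 3 without MNF_ciEPC 2. Against MEF_ciEPC 3 endothelial genes were higher and 2 lower. Adipocyte genes were called higher in 3 and lower in 1 of 5. Stellate and mesothelial genes were called higher in 5 of 10, 3 without MNF_ciHep 1 and 3 against MEF_ciEPC. Neural and muscle genes were called higher in 7 and lower in 1 of 11, with 2 higher without MNF_ciHep 1 and 4 without MNF_ciEPC 1. Pancreas and lung genes were called higher in 0 and lower in 1 of 4.

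**Figure D4:**
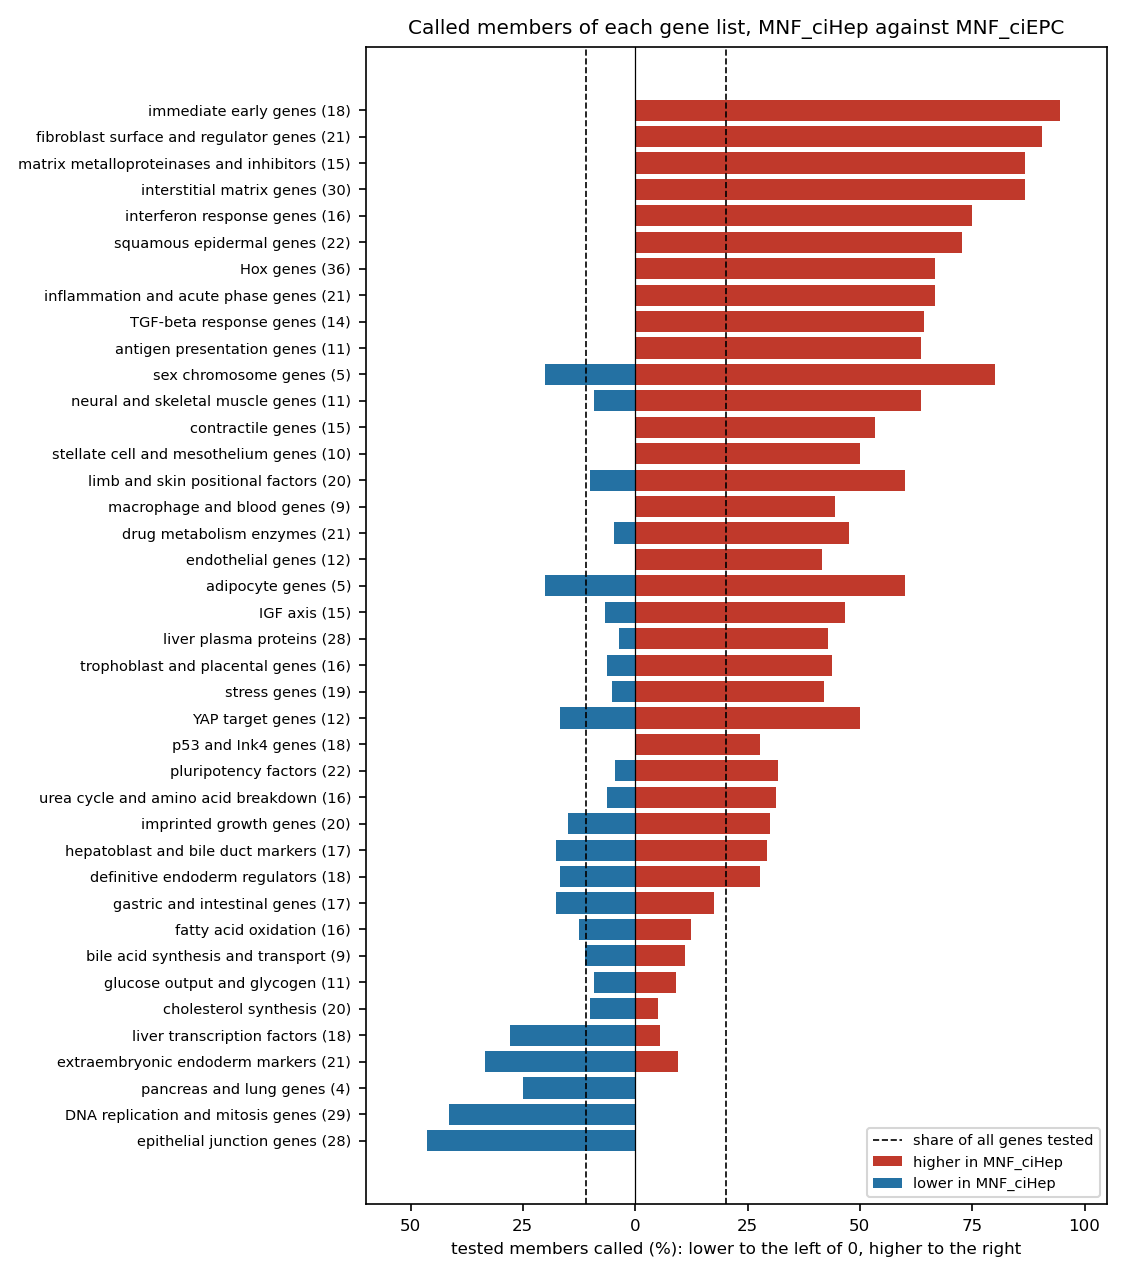
Share of tested members called higher (red, right of 0) and lower (blue, left of 0) in MNF_ciHep against MNF_ciEPC for 40 gene lists, with the number tested in brackets. Dashed lines mark the shares over all genes tested, 20.2% higher and 11% lower. Among immediate early genes 17 of 18 are higher, and among epithelial junction genes 13 of 28 are lower.

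Some cell cycle genes fell. Of 29 genes of DNA replication and mitosis, 12 were called lower and 0 higher (median log2 fold change -0.96). The lower ones numbered 5 without MNF_ciHep 1, 7 without MNF_ciEPC 1 and 5 against MEF_ciEPC. Tyms, which makes thymidylate for DNA, had 34.5 and 29.3 CPM in MNF_ciHep and 95.2 and 104.5 CPM in MNF_ciEPC (log2 fold change -1.64 ± 0.26, adjusted p = 0.000139). Ccnb1, the cyclin of mitosis, had 69.6 and 92.3 CPM in MNF_ciHep and 307 and 229 CPM in MNF_ciEPC (log2 fold change -1.73 ± 0.48, adjusted p = 0.00855), a call lost without MNF_ciHep 1. Mki67, the usual proliferation marker, had 178 and 243 CPM in MNF_ciHep and 319 and 364 CPM in MNF_ciEPC and was not called (adjusted p = 0.209). The summed list was 2067 and 2412 CPM in MNF_ciHep and 4356 and 4379 CPM in MNF_ciEPC, against 619.7, 809 and 1045 CPM in MEF_ciHep and 862 and 977 CPM in MNF. Both MNF_ciHep libraries lay between MNF_ciEPC and those 2 groups.

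Inhibitors of the cell cycle rose. Cdkn2b, an inhibitor of CDK4 and CDK6, had 59.05 and 34.99 CPM in MNF_ciHep and 3.56 and 2.99 CPM in MNF_ciEPC (log2 fold change 3.85 ± 0.43, adjusted p = 7.38e-06). Its neighbour Cdkn2a, which encodes another such inhibitor and the p53 activator ARF, had 129 and 80.3 CPM in MNF_ciHep and 10.8 and 11.8 CPM in MNF_ciEPC (log2 fold change 3.22 ± 0.40, adjusted p = 1.72e-05). Cdkn1a, the p21 target of p53, had 498 and 347 CPM in MNF_ciHep and 137 and 131 CPM in MNF_ciEPC (log2 fold change 1.66 ± 0.34, adjusted p = 0.00106). All 3 were higher in both libraries than in either MNF_ciEPC library. In the p53 and Ink4 list 5 of 18 genes were called higher and 0 lower, a share near the background.

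The 10 largest rises and the 10 largest falls come from called genes whose libraries did not overlap and whose higher group had 32 CPM or more, ranked by fitted fold change. Lcn2, Ptgs2 and Cxcl5 were among the rises. Efemp1, a fibulin of matrix, had 376 and 153 CPM in MNF_ciHep and no count in MNF_ciEPC (at least 1209.8-fold higher, adjusted p = 5.51e-05). Olfml3, a secreted olfactomedin, had 329 and 72.3 CPM in MNF_ciHep and no count in MNF_ciEPC (at least 973-fold higher, adjusted p = 2.44e-06), beside 223 and 252 CPM in MNF. Replicate 1 was at least 2-fold above replicate 2 in both. Crabp2, which carries retinoic acid, had 227 and 61.4 CPM in MNF_ciHep and no count in MNF_ciEPC (at least 689-fold higher, adjusted p = 1.13e-06), beside 14.5 and 17.9 CPM in MNF. Ptn, the growth factor pleiotrophin, had 202 and 18.9 CPM in MNF_ciHep and no count in MNF_ciEPC (at least 563-fold higher, adjusted p = 6.61e-05), beside 3992 and 3654 CPM in MNF. Crabp2 was above the MNF level in both libraries and Ptn far under it. Most Ptn counts were in MNF_ciHep 1, without which its fitted log2 fold change was 9.47, against 12.09 with it, values that depend on the prior count. Ereg, a ligand of the EGF receptor, had 109 and 137 CPM in MNF_ciHep and no count in MNF_ciEPC (at least 481-fold higher, adjusted p = 0.000387). Ldoc1, a gene derived from a retrotransposon, had 206 and 104.96 CPM in MNF_ciHep and no count in MNF_ciEPC (at least 692-fold higher, adjusted p = 4.99e-05) and no count in MNF.

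Among the falls, Aifm3, of a family of mitochondrial oxidoreductases, had 1.51 and 3.44 CPM in MNF_ciHep and 291 and 252 CPM in MNF_ciEPC (log2 fold change -6.91 ± 0.46, adjusted p = 1.42e-07), beside 159.8 and 84.1 CPM in MEF_ciEPC. Otof, otoferlin of vesicle fusion, had 1.82 and 16.6 CPM in MNF_ciHep and 396 and 384 CPM in MNF_ciEPC (log2 fold change -5.65 ± 0.60, adjusted p = 2.25e-05), beside 199 and 223 CPM in MEF_ciEPC. Fam105a had 9.39 and 3.44 CPM in MNF_ciHep and 381 and 405 CPM in MNF_ciEPC (log2 fold change -5.80 ± 0.38, adjusted p = 1.16e-07), beside 181 and 191 CPM in MEF_ciEPC. These 3 were high in ciEPCs of both origins. Sox14, a SOX factor of the nervous system, had 0 and 0.574 CPM in MNF_ciHep and 46.9 and 55.9 CPM in MNF_ciEPC (258-fold lower, counting interval 46.1 to 10201, adjusted p = 0.000136). Mogat1, which makes diacylglycerol, had 0.908 and 0 CPM in MNF_ciHep and 90.2 and 56.4 CPM in MNF_ciEPC (125-fold lower, counting interval 42.7 to 608, adjusted p = 4.65e-05). Kcne3, a potassium channel subunit, had 0.908 and 0.574 CPM in MNF_ciHep and 35.1 and 31.4 CPM in MNF_ciEPC (log2 fold change -5.36 ± 0.69, adjusted p = 6.61e-05). Each was under 1 CPM in both MNF_ciHep libraries. Scml4, a relative of Polycomb proteins, had 0.303 and 0.574 CPM in MNF_ciHep and 24.9 and 49.2 CPM in MNF_ciEPC (91.6-fold lower, counting interval 25.2 to 758, adjusted p = 3.11e-05).

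The other 3 falls were uncertain. Tpm3-rs7 had no count in MNF_ciHep and 162 and 165 CPM in MNF_ciEPC but 1.10 and 0 CPM in MEF_ciEPC. Gm7293 had 1.51 and 0 CPM in MNF_ciHep and 51.5 and 56.7 CPM in MNF_ciEPC but 0.988 and 0.823 CPM in MEF_ciEPC. Gm14403 had 0.908 and 0 CPM in MNF_ciHep and 38.4 and 40.6 CPM in MNF_ciEPC but 2.09 and 4.80 CPM in MEF_ciEPC. All 3 were thus low in every library of the shorter implied length quoted here, and Tpm3-rs7 is a copy of Tpm3, with which it can share reads.

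Whether the step from ciEPC to ciHep was alike from both fibroblast origins was asked with the interaction, MNF_ciHep over MNF_ciEPC relative to MEF_ciHep over MEF_ciEPC. Of 16055 genes, 2689 (16.7%) were higher by this measure and 1879 (11.7%) lower, with a median log2 difference of 0.14 over all genes. Interstitial matrix genes were higher in 23 of 30 cases and fibroblast surface and regulator genes in 20 of 21. Hox genes were higher in 24 of 36, immediate early genes in 13 of 18 and genes of DNA replication and mitosis in 15 of 29. Epithelial junction genes were lower in 23 of 28, fatty acid oxidation genes in 9 of 16 and plasma protein genes in 7 of 28. Of 21 inflammatory genes 8 were higher and 2 lower, and of 16 interferon response genes 1 was higher and 5 were lower.

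Hnf4a shows the form of the difference. Against its fall in MNF_ciHep, it had 173, 183 and 123 CPM in MEF_ciHep and 48.9 and 24.98 CPM in MEF_ciEPC (interaction log2 -4.82 ± 0.62, adjusted p = 9.55e-05). Afp had 6667, 1522 and 6644 CPM in MEF_ciHep and 2.50 and 0.823 CPM in MEF_ciEPC (interaction log2 -13.83 ± 1.18, adjusted p = 4.44e-06). Cdh1, not called in MNF_ciHep, had 1312, 1073 and 1251 CPM in MEF_ciHep and 269 and 237 CPM in MEF_ciEPC (interaction log2 -3.51 ± 0.70, adjusted p = 0.00131). For these 3 genes MEF_ciHep was above MEF_ciEPC, while MNF_ciHep was below MNF_ciEPC. Col1a1 had 1.38, 7.25 and 3.47 CPM in MEF_ciHep and 24.2 and 0.412 CPM in MEF_ciEPC (interaction log2 11.46 ± 1.82, adjusted p = 0.000217). Twist1 had 0.46, 0.169 and 0 CPM in MEF_ciHep and 7.03 and 4.53 CPM in MEF_ciEPC (adjusted p = 2.94e-09). Twist1 was thus lower in MEF_ciHep than in MEF_ciEPC, and Col1a1 overlapped between them.

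For other genes the interaction did not pass. In the step of embryonic origin alone, 18.7% of genes were called higher and 13.8% lower. Gstm1 had 468, 456 and 266 CPM in MEF_ciHep and 41.2 and 33.4 CPM in MEF_ciEPC, and it was called higher from both origins (interaction log2 -0.03 ± 0.56, adjusted p = 1). Cdkn1a had 310.3, 409.8 and 299 CPM in MEF_ciHep and 162 and 62.4 CPM in MEF_ciEPC, and it was also called higher from both (interaction log2 0.06 ± 0.44, adjusted p = 0.96). Sox17 had 134, 138 and 55.8 CPM in MEF_ciHep and 544 and 404 CPM in MEF_ciEPC, and it was called lower from both (interaction log2 -0.09 ± 0.66, adjusted p = 0.961). A p that misses the threshold does not show that these responses were equal. Strain background and the implied read length of the ciEPC libraries differ between the origins and cannot be told apart from origin.

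**Figure D5:**
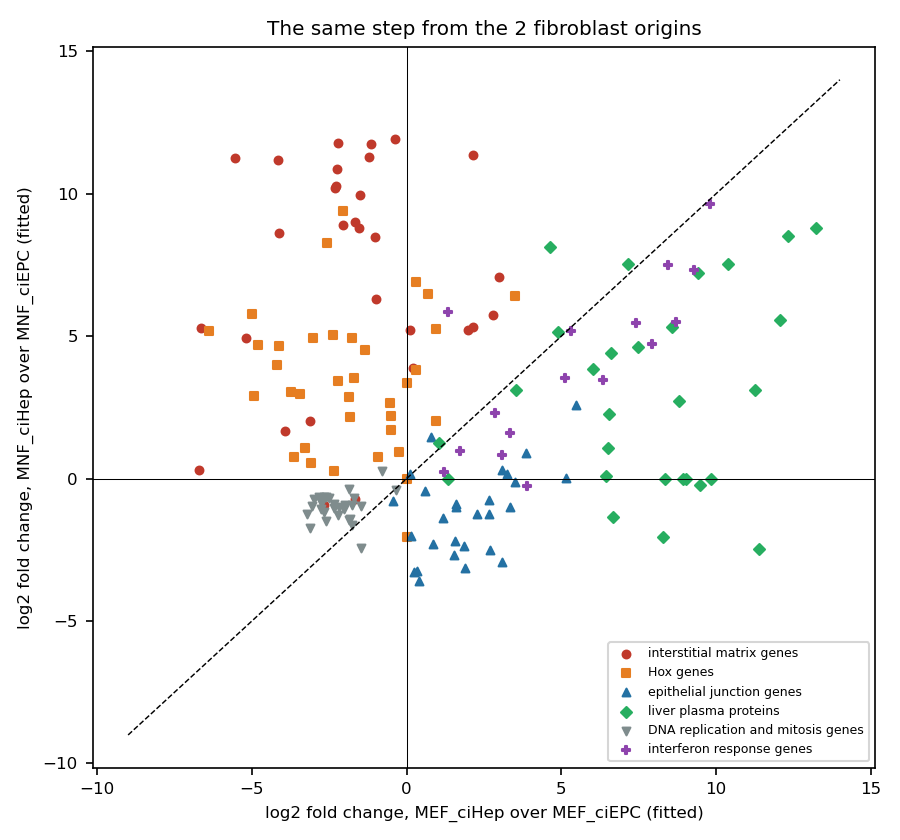
Fitted log2 fold change of MNF_ciHep over MNF_ciEPC (vertical axis) against that of MEF_ciHep over MEF_ciEPC (horizontal axis) for the tested members of 6 gene lists, 1 point per gene; the dashed line marks equal change. Fitted values of genes without counts in a group depend on the prior count. Most interstitial matrix genes lie above the line, with 23 of 30 higher by the interaction, and most epithelial junction genes lie under it, with 23 of 28 lower.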

How the data were processed

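The deposited values used for RNA-seq were expected counts per gene, estimated by the authors with RSEM 1.2.4 on mm10, per the submitters' processing notes. The aligner and annotation are not given in the sources used here. The deposited TPM, which the authors scaled within each library, served as an alternative, and the deposited gene and effective lengths gave the implied read or fragment length. The merged table equalled the per-library tables, with a largest difference of 0.

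Counts were rounded, scaled by TMM and tested with edgeR 4.0.16 (R 4.3.3) in 1 fit of 20 samples in 9 groups (filterByExpr minimum count 10, 16055 of 31673 genes). MEF_ciEPC passages were summed per numbered series, leaving out series 2 passage 22, whose profile was stem cell-like. The common biological coefficient of variation was 0.229. Scripts were tested on simulated data. Alternatives were other scaling, filters, fits, tools (DESeq2 1.42.0, limma 3.58.1 on log2(TPM + 1)) and leaving out each library. The substitution of MEF_ciEPC for MNF_ciEPC was chosen after seeing the data.

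The rule took 213 genes: the 10 largest changes per direction, 6 origin differences per direction, 4 per list over 40 lists, and 34 lineage genes. Genes named outside it, chosen after their values were seen, were Adgre1, Apoe, Ccnb1, Cldn6, Col3a1, Col4a1, Dcn, Egr1, Fos, Grhl2, Hoxb9, Id1, Ifitm3, Igfbp2, Igfbp3, Ihh, Jun, Klf4, Krt5, Lama1, Lrp2, Mmp2, Mmp3, Mmp10, Mmp13, Postn, Prl2c2, Sparc, Tff1 and Trp63. Members, lists and tests were chosen with earlier results of these data known. Promoters are RefSeq's. Some genes that the rule took are not reported here.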

Additional observations from a re-analysis of the deposited data

Results flagged for a closer look

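The interaction passed edgeR's test for every gene of this section. The interaction is MNF_ciHep over MNF_ciEPC relative to MEF_ciHep over MEF_ciEPC, on the log2 scale. Strain background, the implied read length of the ciEPC libraries and the sex or source of the sequenced cells cannot be told apart from fibroblast origin in it.

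Among hepatocyte genes the interaction was -13.8 for Afp, -9.72 ± 1.46 for Apoa1, -6.09 ± 1.25 for Ttr, -4.82 ± 0.62 for Hnf4a and -5.33 ± 0.71 for Foxa3. Among epithelial genes it was -3.51 ± 0.70 for Cdh1, -2.79 ± 0.68 for Krt18 and -3.63 ± 0.56 for Krt19. Apoa1 had 12759.9, 4667 and 10161 CPM in MEF_ciHep and 14.01 and 11.3 CPM in MEF_ciEPC, so its rise there had no counterpart in the overlapping values of MNF_ciHep and MNF_ciEPC. Ttr had 566, 369.7 and 415 CPM in MEF_ciHep and 0.988 and 0.961 CPM in MEF_ciEPC, a larger rise than that called in MNF_ciHep.

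The mesenchymal genes went the other way, with an interaction of 11.5 for Col1a1 and 4.50 ± 0.62 for Vim. The adjusted p of the interaction was 2.63e-05 for Thy1, 2.94e-09 for Twist1, 0.000114 for Twist2, 4.89e-05 for Prrx1 and 0.000556 for Col6a3, where 1 of the 4 groups held too few counts for a fold. The interaction of Mki67 was 2.28 ± 0.59, since MEF_ciHep, at 34.02, 39.6 and 61.3 CPM, lay further under MEF_ciEPC, at 344 and 369 CPM. That of Sox7 was 7.73 ± 0.87, with 0.46, 0.674 and 0.347 CPM in MEF_ciHep and 190.3 and 92.2 CPM in MEF_ciEPC. That of H19 was -3.63 ± 1.08, with 11203, 5015 and 15465 CPM in MEF_ciHep and 1326 and 97.03 CPM in MEF_ciEPC.

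The remaining genes had too few counts in at least 1 group for a fold. Higher in the step of neonatal origin were Gm37471 (adjusted p = 0.0111), the mast cell protease Mcpt1 (0.000898), the envelope gene Sprr1b (0.00308), the claudin gene Cldn11 (0.000285) and the Y-linked Ddx3y (0.00351). Lower were Tpm3-rs7 (0.0022), Pgk1-rs7 (0.0492), the aldo-keto reductase gene Akr1c19 (0.000436), the gastric protease gene Ctse (0.0013) and the gasdermin gene Gsdma2 (0.000362). Ddx3y had no count in MNF_ciEPC and was present in MEF_ciEPC, while Tpm3-rs7 was high in MNF_ciEPC and nearly absent in MEF_ciEPC. Tpm3-rs7 and Pgk1-rs7 are uncertain, as copies of other genes. All counts of Gm37471 in MNF_ciHep lay in replicate 2, at 0 and 275 CPM, beside 30.6 and 93.5 CPM in MEF_ciEPC. Its call in MNF_ciHep over MNF_ciEPC was lost without MNF_ciHep 2, without either MNF_ciEPC library and against MEF_ciEPC.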

How the results depend on the processing

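Without the 2-fold minimum, 2896 genes were lower in MNF_ciHep, against 1770 with it. Leaving out each library gave 2245 to 2997 genes higher and 1479 to 2260 lower, and for the interaction 1914 to 2578 higher and 1580 to 1993 lower; where a group kept 1 library, it was assumed to vary like the others. With MEF_ciEPC in place of MNF_ciEPC, 2670 genes were higher and 1566 lower, of which 2322 and 1076 shared the main call and 17 had the opposite one. In that setting the Gm7293 log2 fold change was 0.0433, the Afp log2 fold change 0.79 and the Eif2s3y log2 fold change -0.0885, each of the other sign than against MNF_ciEPC and none of them called; the cause was not tested. Same-numbered libraries did not deviate together (r = -0.01), so the replicate block rests on a shared number alone. With the replicate block, fitted to the compared groups, the interaction was higher for 1542 genes, against 2188 without the block in those groups and 2689 in the full fit. The block left 2574 genes higher and 1510 lower in MNF_ciHep. At prior count 0.5 the mean r of MNF_ciHep was 0.726 with ESC_EPC (0.752 at prior count 2), 0.7001 with pHep (0.731) and 0.669 with ESC (0.698). Of the genes named here or by the rule, 206 kept their side of the threshold without MNF_ciHep 1, 35 lost their call and 3 gained one. Without MNF_ciHep 2 the numbers were 228, 8 and 8. RLE scaling moved the median log2 fold change of all genes to 0.12, against 0.05. Depth limits genes of a few CPM, since 3 counts are 0.908 CPM in MNF_ciHep 1 and 1.72 CPM in MNF_ciHep 2.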

Other observations

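Imprinted genes, which are expressed from 1 parental copy and often act on growth, moved in part. Zim1 had 79.3 and 59.1 CPM in MNF_ciHep and 2.17 and 2.46 CPM in MNF_ciEPC (log2 fold change 4.90 ± 0.81, adjusted p = 0.000207), beside 22.7 and 18.1 CPM in MNF. Mest, a paternally expressed gene of fetal mesoderm, had 208 and 26.96 CPM in MNF_ciHep and 4.80 and 4.04 CPM in MNF_ciEPC (log2 fold change 4.75 ± 0.93, adjusted p = 0.000807), a call lost without MNF_ciHep 1. Ndn, necdin, had 29.98 and 16.1 CPM in MNF_ciHep and 2.79 and 2.64 CPM in MNF_ciEPC (log2 fold change 3.11 ± 0.47, adjusted p = 9.5e-05), beside 153 and 129 CPM in MNF. Zim1 was above MNF in both MNF_ciHep libraries and Ndn below it.

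Metabolic genes outside the plasma proteins moved in both directions. Cyp7b1, an oxysterol hydroxylase of liver and other tissues, had 50.3 and 15.5 CPM in MNF_ciHep and 0.155 and 0 CPM in MNF_ciEPC (465-fold higher, counting interval 82.4 to 18453, adjusted p = 5.3e-06), beside 31.4 and 32.6 CPM in MNF. Ass1, which makes argininosuccinate, had 144 and 78.6 CPM in MNF_ciHep and 23.2 and 20.03 CPM in MNF_ciEPC (log2 fold change 2.38 ± 0.48, adjusted p = 0.000981), beside 73.8 and 96.2 CPM in MNF. Ehhadh, an enzyme of peroxisomal fatty acid oxidation, had 5.45 and 10.9 CPM in MNF_ciHep and 27.1 and 40.9 CPM in MNF_ciEPC (log2 fold change -2.13 ± 0.62, adjusted p = 0.0115). Insig1, which restrains cholesterol synthesis, had 279 and 310.3 CPM in MNF_ciHep and 735 and 863 CPM in MNF_ciEPC (log2 fold change -1.44 ± 0.33, adjusted p = 0.00278). In these 4 genes the groups did not overlap.

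Genes of stromal and surface types were also present. Hgf, the hepatocyte growth factor that stellate cells and fibroblasts make, had 14.2 and 20.1 CPM in MNF_ciHep and no count in MNF_ciEPC (at least 65.8-fold higher, adjusted p = 0.000737), and at 16.7 and 17.2 CPM MNF overlapped with MNF_ciHep. Lpl, lipoprotein lipase, had 75.4 and 57.9 CPM in MNF_ciHep and 8.82 and 6.85 CPM in MNF_ciEPC (log2 fold change 3.09 ± 0.43, adjusted p = 4.72e-05), far under the 1192 and 901 CPM of MNF. H2-T23, a class I antigen gene, had 118 and 71.1 CPM in MNF_ciHep and 19.5 and 21.4 CPM in MNF_ciEPC (log2 fold change 2.22 ± 0.31, adjusted p = 5.24e-05), above the 36.8 and 40.7 CPM of MNF. Lgr5, a receptor of stem cells in gut and skin, had 39.7 and 5.74 CPM in MNF_ciHep and 1.39 and 1.41 CPM in MNF_ciEPC (log2 fold change 4.07 ± 0.81, adjusted p = 0.00129), a call lost without MNF_ciHep 1, beside 129 and 130.4 CPM in MNF.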
